A study of Homo sapiens with 18 samples.

Results

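The 7 genes HEXIM1, CDK9, CCNT1, CCNT2, LARP7, MEPCE and BRD2 were followed in U251 cells treated with enzastaurin. Apart from BRD2, a protein of the BET family, they encode parts of the machinery that controls the release of paused RNA polymerase II. Their probe sets were those that the platform annotation assigns to 1 of these genes alone, which gave 19 probe sets of the 54613 on the array and 7 of the 19775 genes with such a probe set. Where a gene had several, its brightest, averaged over all 18 arrays, served as the main one and the others as a check. All 7 genes were bright enough to be among the 12376 genes tested. The group was chosen by the measured fall of HEXIM1 at 4 h, so that fall, and every comparison that contains it, is given here as a description with no test.

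U251 cells come from a human glioblastoma and are a standard cell line, and enzastaurin is a drug that blocks the beta form of protein kinase C and is also reported to lower GSK3 activity. Cells received the drug or its solvent, DMSO, and were harvested after 4, 10 or 18 h, which gives 6 groups of 3 arrays and 18 arrays in all. The title of the series concerns GSK3 inhibition, cell death, c-MYC, NF-kB and glucose in glioma, and the labels give no dose of enzastaurin. They do not say whether the 3 arrays of a group came from separate cultures, so p-values measure the spread between these arrays, which may be technical. All groups are the same line in serum-containing medium, without a genetic change.

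Each array carries a linear intensity per probe set, and the 18 arrays had medians between 99.2 and 125.9. Arrays of the same group correlated at 0.951 to 0.969 on the log2 scale. Of 8 glial and glioma markers, 6 were above the median level of all probe sets, while GFAP (mean 27.8) and S100B (mean 12), the classical astrocyte markers, were below it. The summed intensity of the 8 ran from 51044 to 77919 over the arrays. Of 9 measured markers of blood, endothelial, epithelial, liver and neural cells, 3 were above that level, and their sum ran from 525.3 to 1223. None of these 3 passed the test at any time, with 0 at an unadjusted p under 0.05 in limma. Of the 6 glial and glioma markers tested, NES was lower (-0.67) and EGFR higher (0.53) with enzastaurin at 18 h, and in DMSO from 4 to 18 h 4 fell and 1 rose; their part in the results below was not tested.

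P-TEFb is a kinase made of CDK9 and cyclin T1 or T2. It phosphorylates RNA polymerase II and the pausing factors that hold the polymerase just downstream of a start site, which lets the polymerase move into the gene. Much of the P-TEFb in a cell is held inactive in a small ribonucleoprotein built on 7SK RNA, in which HEXIM1 inhibits the kinase, LARP7 protects the RNA and MEPCE caps its 5′ end. BRD2 is a bromodomain protein of the BET family, which binds acetylated histones on active chromatin. HEXIM1 mRNA is itself known to respond to drugs that disturb this balance, and it was first described as an mRNA induced by hexamethylene bisacetamide.

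The windows of 250 bases before the start site are printed for the 2 genes of the group whose mRNA differed between enzastaurin and DMSO at both 10 and 18 h, HEXIM1 (lower) and CCNT1 (higher). They come from RefSeq on GRCh38.p14 and read 5′ to 3′ on the gene's own strand, with the searched motifs in capitals. The HEXIM1 window lies on the plus strand and the CCNT1 window on the minus strand.
HEXIM1, chr17:45148225-45148474: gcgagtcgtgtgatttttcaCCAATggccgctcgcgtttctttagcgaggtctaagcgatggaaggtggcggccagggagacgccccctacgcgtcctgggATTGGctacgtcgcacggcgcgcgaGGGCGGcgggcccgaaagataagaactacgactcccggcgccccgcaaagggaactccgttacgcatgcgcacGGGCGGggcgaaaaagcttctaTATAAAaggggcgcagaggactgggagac
CCNT1, chr12:48716708-48716957: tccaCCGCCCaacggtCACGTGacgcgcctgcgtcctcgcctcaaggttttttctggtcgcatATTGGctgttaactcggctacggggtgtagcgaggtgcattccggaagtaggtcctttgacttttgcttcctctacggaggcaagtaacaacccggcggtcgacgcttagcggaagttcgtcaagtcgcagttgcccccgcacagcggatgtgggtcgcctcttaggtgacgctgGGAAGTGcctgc
The HEXIM1 window held CCAAT at 230 bases before the start and its complement ATTGG at 149, GGGCGG at 124 and 51, and TATAAA at 29. HEXIM1 was the only gene of the 7 with TATAAA on either strand in any of its windows, and 10.7% of all 35116 windows of this length held it. The CCNT1 window held the complement CCGCCC at 246 bases before the start, the E-box CACGTG at 234, ATTGG at 187 and the ETS motif GGAAGTG at 12. CACGTG was in 6.34% of all windows and GGAAGTG in 9.28%. GGGCGG, read on both strands, was in 11 of the 14 windows of the 7 genes, against 42.6% of all windows. CCAAT on either strand was in 5 of the 14 windows, against 32.0% of all windows, and the CRE core TGACGT in 2, against 7.1%. The GC content was 62.4% in the HEXIM1 window and 59.2% in the CCNT1 window printed here, against a median of 58.0%. A second CCNT1 window, at chr12:48696239-48696488, had 29.6% and held none of the motifs searched. CCAAT and its complement overlap no other motif searched, and a match says only that these letters stand in the window.

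HEXIM1 mRNA, on its main probe set 202814_s_at, was lower with enzastaurin at every time. At 4 h the 3 DMSO arrays read 2381.7, 2474.3 and 2623.4, and the 3 enzastaurin arrays read 1141.7, 1021.3 and 1121.3. At 10 h DMSO read 3611.2, 3402.4 and 3631.5 and enzastaurin 1860.7, 1963.6 and 1635.3. At 18 h DMSO read 3032.5, 3629.5 and 3397.1 and enzastaurin 2091.6, 1876.5 and 2103.2. The highest enzastaurin array lay below the lowest DMSO array at each time, and also below every DMSO array of the other times. In a bulk culture, fewer cells that express a gene and less of its mRNA per cell cannot be told apart.

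**Figure D1:**
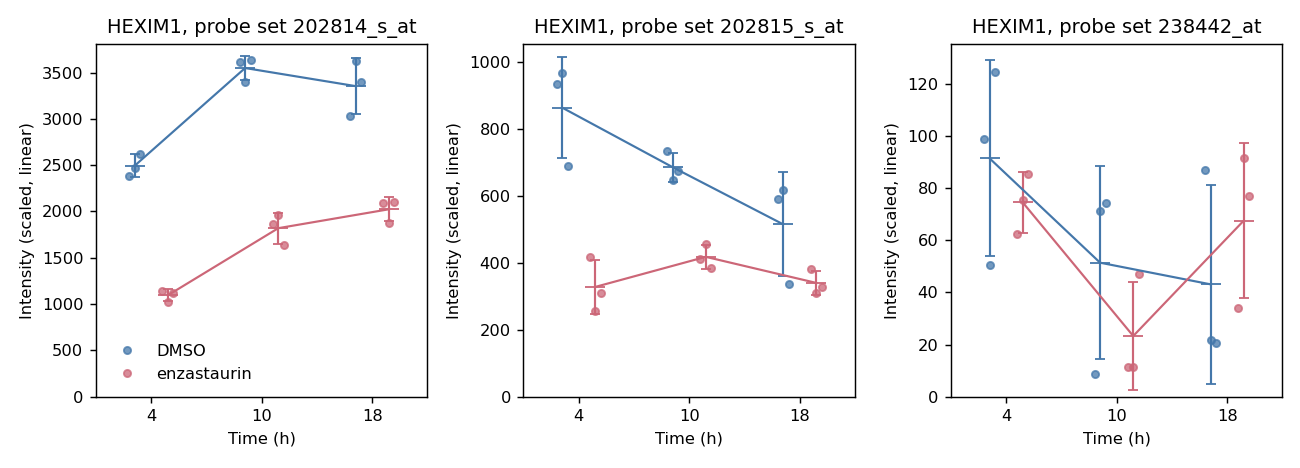
HEXIM1 intensity (linear scale, 1 panel for each of its 3 probe sets) on each array against hours of treatment, drawn at equal steps with DMSO and enzastaurin set side by side; points are arrays, bars are the mean ± SD of 3 arrays and lines join the means. Enzastaurin arrays of the main probe set lie between 1021.3 and 2103.2 and DMSO arrays between 2381.7 and 3631.5, and the DMSO mean is lowest at 4 h in the main probe set and highest at 4 h in the second.

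As a description, HEXIM1 was 2.26-fold lower at 4 h (mean 1095 ± 64.4 against 2493 ± 122, SD, n = 3), which placed it 22nd from the lowest change among the 12376 genes. At 10 h it was 1.95-fold lower, a log2 change of -0.96 with a standard error of 0.08 and an adjusted p of 1.03e-07 in limma. At 18 h it was 1.65-fold lower, a log2 change of -0.72 with a standard error of 0.08 and an adjusted p of 2.29e-06. The group means at these times were 1820 ± 168 against 3548 ± 127 and 2024 ± 128 against 3353 ± 301 (SD, n = 3). The rank from the lowest change was 78 at 10 h and 283 at 18 h. The change from 10 to 18 h, 0.24 on the log2 scale with a 95% interval of -0.002 to 0.48, did not pass the test (adjusted p = 0.368). The difference between 4 and 18 h was 0.45 on the log2 scale. At 18 h the mean over all 3 HEXIM1 probe sets, which includes the dim one described next, gave -0.22 with an adjusted p of 0.5.

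The other HEXIM1 probe sets were read as a check. The second, 202815_s_at, read 934.9, 967.1 and 690 in DMSO at 4 h and 417.3, 256.6 and 310.7 in enzastaurin. It read 733.8, 648.8 and 675.4 against 412.5, 457.1 and 384.7 at 10 h. At 18 h it read 591.5, 617.6 and 336.8 against 381.5, 309.8 and 329.3. Its groups did not overlap at 4 and 10 h and overlapped at 18 h, where the third DMSO array lay among the enzastaurin arrays. With every probe set above the level filter tested on its own, its log2 change was -1.37 at 4 h, -0.69 at 10 h (adjusted p = 0.0434) and -0.53 at 18 h (adjusted p = 0.0919). With every probe set tested and no level filter, the call at 10 h was lost (adjusted p = 0.0805), and the adjusted p at 18 h was 0.161. The third, 238442_at, had a mean of 58.5, below the median level of all probe sets. In the fit with no level filter its changes of -0.19, -0.68 and 0.61 did not pass the test (adjusted p = 0.961, 0.77 and 0.712).

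The HEXIM1 probe sets differed in direction over time in the solvent control. These values share the DMSO arrays of 4 h with the fall that chose the group, so they are a description with no test. From 4 to 18 h in DMSO the log2 difference was 0.42 for the main probe set and -0.76 for the second, and the mean over the 3 probe sets gave -0.44. The main probe set was highest at 10 h. Which transcripts each probe set detects was not analysed here, and the direction of HEXIM1 over time in DMSO therefore holds for a probe set and not for the gene.

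The kinase subunit CDK9 did not pass the test at any time. At 4 h its main probe set, 203198_at, read 442.8, 318.4 and 490 in DMSO and 604.8, 605.7 and 413 in enzastaurin. The 10 h arrays read 397.5, 452.3 and 428.6 against 529, 411.1 and 455.6, and those of 18 h 582.2, 522.9 and 573.7 against 518.5, 545.9 and 580.2. The groups overlapped at all 3 times. The log2 changes were 0.36 with a 95% interval of 0.03 to 0.70 at 4 h (adjusted p = 0.334), 0.12 (-0.21 to 0.45) at 10 h and -0.03 (-0.36 to 0.30) at 18 h. The other CDK9 probe sets, with means of 119 and 50.3, passed the test at no time either.

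CCNT1, which encodes cyclin T1, the regulatory subunit that activates CDK9, rose with enzastaurin at 10 and 18 h on its main probe set, 225493_at. At 4 h it read 1629.4, 1766.6 and 1802.5 in DMSO and 2086.1, 1986.2 and 2282.7 in enzastaurin. At 10 h it read 1735.7, 1741.8 and 1742.9 against 2510.5, 2276.7 and 1862.5. At 18 h it read 1503.3, 1591.9 and 1648.7 against 2124.2, 2056.5 and 1920.4. Each enzastaurin array was above all 3 DMSO arrays of its time. The main probe set was 1.22-fold higher at 4 h (log2 0.29, standard error 0.09, adjusted p = 0.124), 1.26-fold higher at 10 h (log2 0.34, adjusted p = 0.0211) and 1.28-fold higher at 18 h (log2 0.36, adjusted p = 0.00737). Averaged over the 3 times it was 1.25-fold higher (log2 0.33, standard error 0.05, adjusted p = 1e-04). The effects at the 3 times lay within 0.07 of each other on the log2 scale, and the 95% interval of the difference between 18 and 4 h was -0.19 to 0.34.

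The calls on CCNT1 depended on the settings. With each array's median subtracted, the values were 0.35 at 10 h (adjusted p = 0.198) and 0.35 at 18 h (adjusted p = 0.114), and without any of 5 of the 6 arrays of 10 h the adjusted p at 10 h rose to as much as 0.139; the range over single omissions at 18 h was 0.00144 to 0.0391. With only the groups compared, the call at 10 h was lost as well (adjusted p = 0.0661). The second CCNT1 probe set, 206967_at, with a mean of 216, gave 0.67, 0.30 and -0.31 and passed the test at no time (adjusted p = 0.43, 0.717 and 0.639). The mean over both probe sets gave 0.32 at 10 h (adjusted p = 0.319) and 0.03 at 18 h (0.948). In the average over times it gave 0.28, where the call was also lost (adjusted p = 0.0557).

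CCNT2, which encodes the alternative cyclin T2, did not pass the test on its main probe set, 204645_at. It read 411.7, 625.7 and 571.1 in DMSO and 647.8, 631 and 729.2 in enzastaurin at 4 h, where the groups met but did not overlap. At 10 h it read 728.2, 654.6 and 751.3 against 879.8, 739.8 and 640.3, and at 18 h 660.9, 709.9 and 645.7 against 743.6, 832.7 and 607.4, with overlap at both times. The log2 changes were 0.33 (adjusted p = 0.342), 0.07 (0.852) and 0.10 (0.729). The upper 95% bound of the change was 0.63 at 4 h and 0.41 at 18 h. The 3 other CCNT2 probe sets passed the test at no time, and their changes ran from -0.23 to 0.43.

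**Figure D2:**
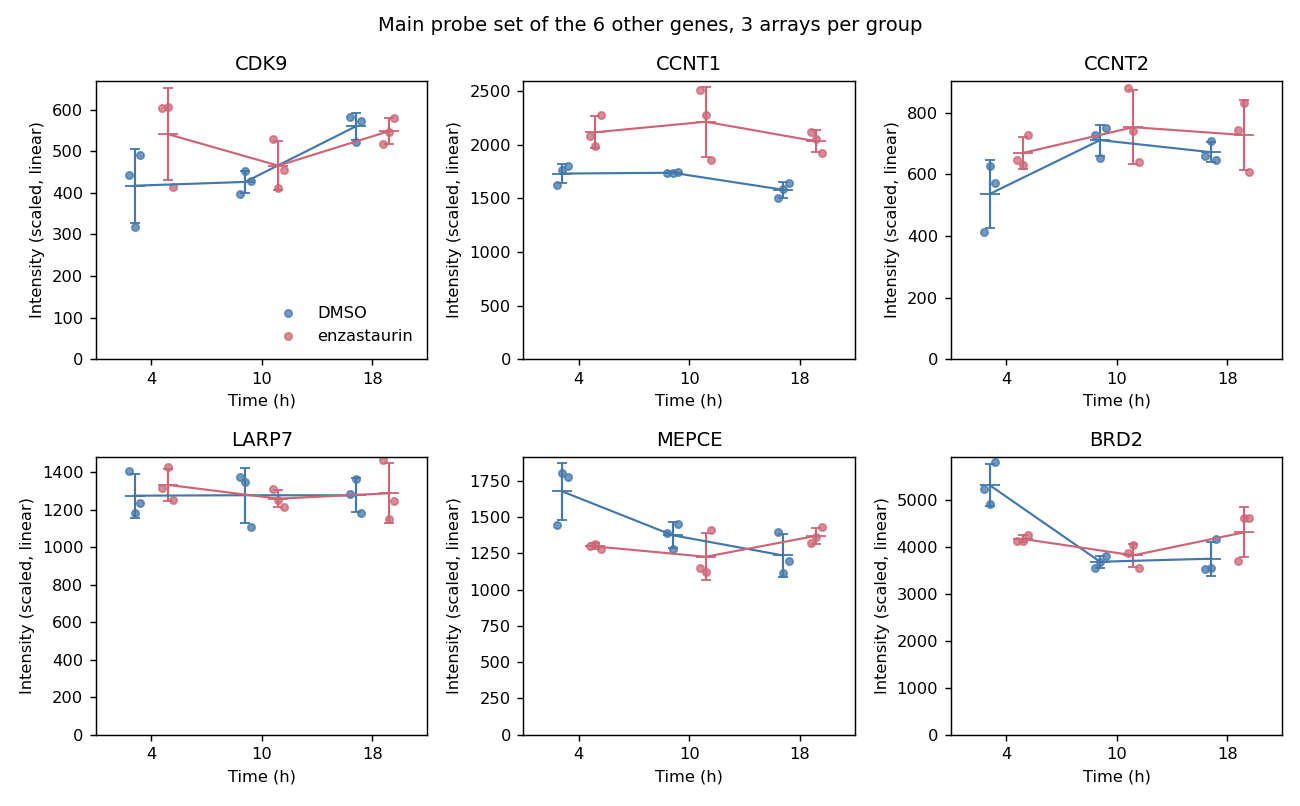
Linear intensity of the main probe set of the 6 genes other than HEXIM1 on each array against hours of treatment, drawn at equal steps with DMSO and enzastaurin side by side; points are arrays, bars are the mean ± SD of 3 arrays and lines join the means. Enzastaurin lies above DMSO at every time for CCNT1, MEPCE and BRD2 have their highest mean in DMSO at 4 h, and LARP7 stays between 1109.5 and 1465.8 on all arrays.

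LARP7, which binds and stabilises 7SK RNA, was the steadiest of the 7 by group means on its main probe set, 212785_s_at. It read 1407.1, 1181.4 and 1239.1 in DMSO and 1319.4, 1426.9 and 1254.5 in enzastaurin at 4 h. The values were 1376.4, 1348.5 and 1109.5 against 1309.5, 1253.2 and 1216.5 at 10 h and 1283.6, 1366.4 and 1183.3 against 1465.8, 1153.3 and 1246.6 at 18 h. The highest group mean was 1.06-fold the lowest, and the groups overlapped at every time. The log2 changes were 0.06, -0.01 and 0.01 (adjusted p = 0.86, 0.964 and 0.977), and the 95% intervals reached from -0.23 to 0.28 over the 3 times. The sign of the changes at 10 and 18 h turned under other settings. The 2 dimmer LARP7 probe sets, with means of 175 and 125, passed the test at no time, with changes between -0.06 and 0.20.

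MEPCE, the enzyme that caps 7SK RNA, is measured by a single probe set, 219798_s_at. It read 1447.4, 1801.8 and 1777.9 in DMSO and 1298.4, 1316.8 and 1275.6 in enzastaurin at 4 h. The 10 h arrays read 1392.2, 1275.9 and 1453.7 against 1146.7, 1119.7 and 1410.7, and at 18 h 1396.5, 1112.3 and 1195.2 against 1318.9, 1362.6 and 1428.9. The groups stood apart at 4 h only, with enzastaurin lower. The log2 changes of -0.36 at 4 h (adjusted p = 0.0867), -0.17 at 10 h (0.385) and 0.15 at 18 h (0.364) did not pass the test. The difference between the effects at 18 and 4 h, 0.51 with a standard error of 0.15, did (adjusted p = 0.0339). In DMSO alone MEPCE fell from 4 to 18 h by 0.44 on the log2 scale (adjusted p = 0.00438), from a mean of 1676 ± 198 to 1235 ± 146, while the enzastaurin means were 1297 ± 20.6 and 1370 ± 55.4 (SD, n = 3). The difference passed no longer without any of 9 single arrays, where the adjusted p reached 0.0977, with array medians subtracted (adjusted p = 0.171), with no level filter (0.0502) and without the trend (0.064).

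BRD2, the BET protein of the group, was lower with enzastaurin at 4 h and fell with time in DMSO on its main probe set, 214911_s_at. It read 5227.2, 4921.7 and 5799.5 in DMSO and 4133.9, 4121.9 and 4257.3 in enzastaurin at 4 h, with no overlap. At 10 h it read 3553.2, 3687.6 and 3812.3 against 3878.5, 4033.1 and 3551.1, and at 18 h 3528.3, 3550.6 and 4167.7 against 3692.3, 4615.7 and 4617.9, with overlap at both. The log2 changes were -0.35 (standard error 0.09, adjusted p = 0.046), 0.05 (0.819) and 0.20 (0.144). The difference between 18 and 4 h was 0.54 (standard error 0.12, adjusted p = 0.00841). That call was lost with array medians subtracted (0.42, adjusted p = 0.155) and with probe sets averaged (0.40, adjusted p = 0.0562), and the other probe sets gave 0.37 (adjusted p = 0.149) and 0.29 (adjusted p = 0.476). In DMSO BRD2 fell from 4 to 18 h by 0.50 on the log2 scale (adjusted p = 0.00031). The other BRD2 probe sets fell in DMSO by 0.43 (adjusted p = 0.00371) and 0.49 (adjusted p = 0.0156).

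The 4 h call on BRD2 stood close to the threshold. Without any of 12 of the 18 arrays it no longer passed, with an adjusted p of up to 0.213, and with array medians subtracted the change was -0.23 (adjusted p = 0.328). The other BRD2 probe sets gave -0.29 (adjusted p = 0.212) and -0.13 (adjusted p = 0.792) at 4 h.

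**Figure D3:**
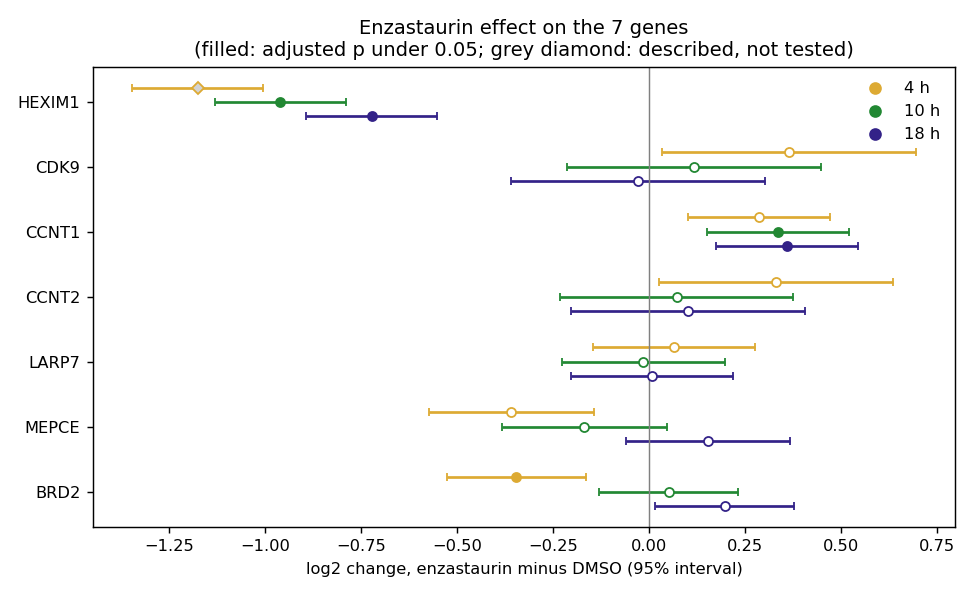
Log2 change of enzastaurin against DMSO with its 95% interval for the main probe set of each of the 7 genes at 4, 10 and 18 h; filled symbols have an adjusted p under 0.05, open ones do not, and the grey diamond is HEXIM1 at 4 h, which was not tested. HEXIM1 runs from -1.18 to -0.72, CCNT1 from 0.29 to 0.36, and MEPCE and BRD2 go from below to above 0.

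Counted over the 6 genes other than HEXIM1, BRD2 was lower and none was higher at 4 h in limma, where 1.25% of all genes were called lower and 0.558% higher. At 10 h HEXIM1 was lower (4.69% of all genes) and CCNT1 higher (3.77%). At 18 h HEXIM1 was again lower (7.90% of all genes) and CCNT1 higher (8.10%). In the average over times CCNT1 was the only 1 of the 6 other genes called, and it was higher (9.07% of all genes higher, 9.44% lower). The groups of 3 arrays did not overlap for 5 of the 7 at 4 h, HEXIM1 included (18.3% of all genes), and for HEXIM1 and CCNT1 at 10 h (26.8%) and 18 h (29.7%). HEXIM1 counts among the 5 through the values that chose it, and nothing is read from its place there. The median log2 change over the 7 genes was 0.06, 0.05 and 0.10 at 4, 10 and 18 h, beside 0.00, -0.02 and 0.00 over all genes. Subtracting array medians moved the median of all genes at 4 h by 0.12 and turned the split of calls there from 155 lower and 69 higher to 25 lower and 54 higher. It left HEXIM1 at -1.06 and BRD2 at -0.23, and it changed the sign of none of the 7 genes at 4 h.

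Over time, the effect at 18 h exceeded that at 4 h for MEPCE and BRD2, 2 of the 6 genes other than HEXIM1 (4.07% of all genes were called higher). No such difference passed for these 6 between 4 and 10 h (1.41% of all genes passed) or between 10 and 18 h (2.23%), with 1 gene at an unadjusted p under 0.05 in each in limma. In DMSO at 18 h against 4 h, where 20.3% of all genes passed, MEPCE and BRD2 fell and CDK9 (0.43, adjusted p = 0.0614), CCNT2 (0.34, 0.117), CCNT1 (-0.13, 0.349) and LARP7 (0.00, 0.988) did not pass. The comparisons of MEPCE and BRD2 at 4 h and over time in DMSO share the same 3 DMSO arrays of 4 h, which hold the highest group mean of both genes.

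**Figure D4:**
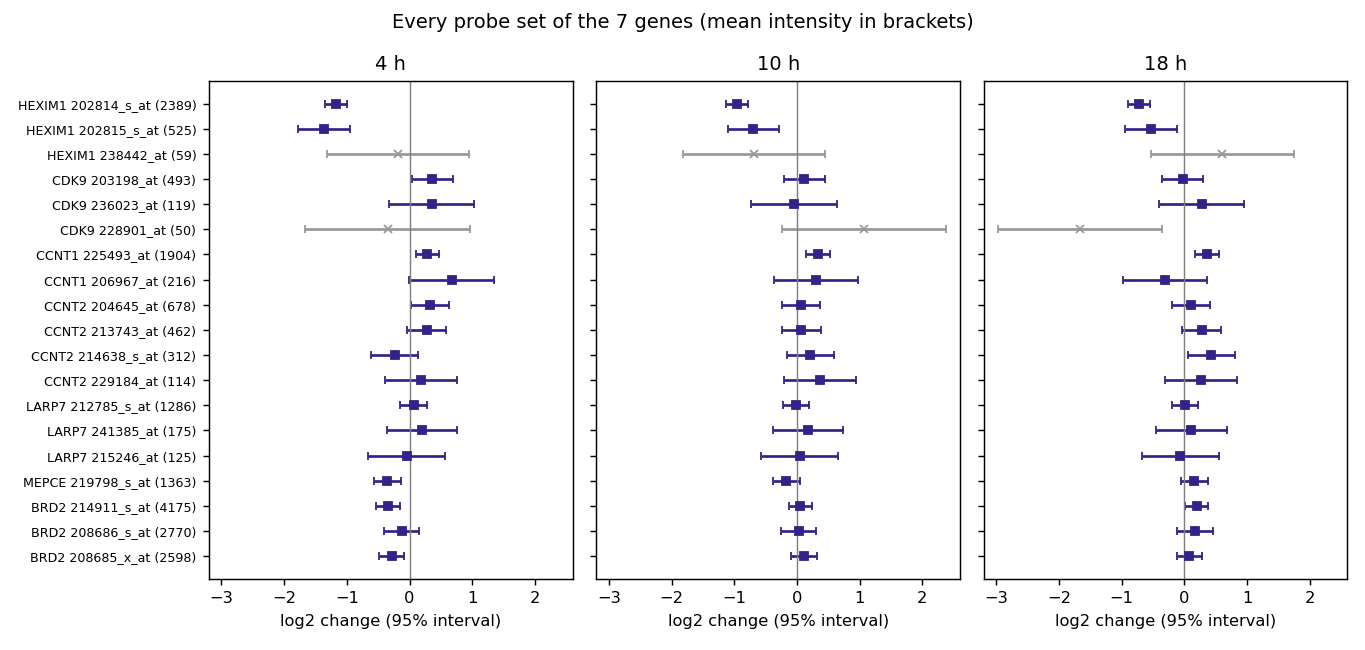
Log2 change of enzastaurin against DMSO at 4, 10 and 18 h for every probe set of the 7 genes, with 95% intervals and the mean intensity in brackets; grey crosses are probe sets below the median level of all probe sets. Both brighter HEXIM1 probe sets lie below 0 at all 3 times, and the second CCNT1 probe set goes from 0.67 to -0.31.

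The other factors of elongation control were read from lists of 51 genes, of which 45 were tested. At 4 h none of the 45 passed in limma, with 8 at an unadjusted p under 0.05. At 10 h 4 were higher and 1 lower, 11.1% of the 45 in both directions together. Of all genes, 3.77% were called higher and a further 4.69% lower at that time. At 18 h 5 were higher and 3 lower, 17.8% of the 45 in both directions together, beside 8.10% of all genes higher and a further 7.90% lower. The medians of the 45 were 0.03, 0.03 and 0.05 on the log2 scale.

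In the super elongation complex, the assembly that carries P-TEFb to many genes, 9 of 10 genes were tested. ELL2, an elongation factor of this complex, fell by 0.63 at 10 h (adjusted p = 0.000508) and by 1.10 at 18 h (2.15-fold, adjusted p = 2.16e-07). Its means were 2627 ± 172, 3231 ± 94.6 and 2884 ± 127 in DMSO and 2260 ± 248, 2093 ± 278 and 1343 ± 198 in enzastaurin at 4, 10 and 18 h (SD, n = 3). The scaffold gene AFF1 was higher at 18 h by 0.52 (adjusted p = 0.00113). EAF1, whose protein binds ELL factors, was higher by 0.34 at 10 h (adjusted p = 0.0312) and 0.41 at 18 h (0.00474), and MLLT1, a YEATS domain subunit, by 0.36 at 10 h (0.042). The call on MLLT1 was lost under 6 alternatives (adjusted p = 0.0589 to 0.805) and without any of 6 single arrays (up to 0.179), and those on EAF1 with array medians subtracted (0.201 at 10 h and 0.0699 at 18 h) and, at 10 h, without any of 5 single arrays (up to 0.149). With probe sets averaged, AFF1 at 18 h gave 0.30 (adjusted p = 0.529) and ELL2 at 10 h -0.25 (0.286). AFF4, the other scaffold, gave 0.11, -0.01 and 0.23 and did not pass.

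Of the NELF and DSIF pausing factors, which hold the polymerase before P-TEFb acts, 4 of 6 were tested. None passed at 4, 10 or 18 h in limma, with 0, 0 and 1 at an unadjusted p under 0.05. Of the 12 genes of the PAF complex and related elongation factors, which travel with the released polymerase, none passed either, with 0, 2 and 4 at an unadjusted p under 0.05. Of all genes, 1.25%, 4.69% and 7.90% were called lower at 4, 10 and 18 h and 0.558%, 3.77% and 8.10% higher. Beside these shares the lists are too short for anything to be read from the absence of calls.

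Among the BET relatives and other partners of 7SK or P-TEFb, 9 of 11 were tested. BRD3, another BET gene, fell by 0.66 at 18 h (adjusted p = 0.00094), from 990 ± 119 in DMSO to 620 ± 56.4 in enzastaurin (SD, n = 3). DDX21, a helicase reported to release P-TEFb from 7SK, was higher by 0.41 at 10 h (adjusted p = 0.000196) and 0.24 at 18 h (0.00951). HNRNPA1, which binds 7SK RNA freed of HEXIM1, was higher by 0.47 at 10 h (adjusted p = 0.0173). JMJD6, an enzyme of the JmjC domain family, was higher by 0.29 at 18 h (0.0403), and PPM1G, a phosphatase that acts on P-TEFb, by 0.21 in the average over times (0.00811). HEXIM2, the paralog of HEXIM1, gave -0.33, -0.21 and -0.06 and did not pass (adjusted p = 0.55, 0.646 and 0.898). With probe sets averaged, BRD3 at 18 h gave -0.32 (adjusted p = 0.256) and HNRNPA1 at 10 h 0.20 (0.634), and HNRNPA1 was also lost without the trend (0.0579) and without either of 2 single arrays (up to 0.0871). DDX21 at 18 h was lost with array medians subtracted (adjusted p = 0.155), with only the groups compared (0.0609) and without 1 array (0.0614), and JMJD6 at 18 h under 7 alternatives (0.0539 to 0.227) and without any of 5 single arrays (up to 0.203).

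Of the other transcription kinases and cyclins, 11 of 12 were tested. CCNL1, a cyclin that partners CDK11, was higher by 0.43 at 18 h (adjusted p = 0.00565) and MNAT1, the assembly factor of the CDK7 kinase, was lower by 0.34 (0.0427). POLR2A, the largest subunit of RNA polymerase II, gave -0.65 at 4 h (0.0725), -0.26 at 10 h and 0.31 at 18 h (0.29). CCNK, the cyclin of CDK12 and CDK13, was higher by 0.19 in the average over times (0.0327). MNAT1 at 18 h lost its call under 6 alternatives (adjusted p = 0.052 to 0.138) and without any of 9 single arrays (up to 0.21), and CCNK under 4 alternatives (0.0528 to 0.842) and without any of 10 single arrays (up to 0.0777).

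**Figure D5:**
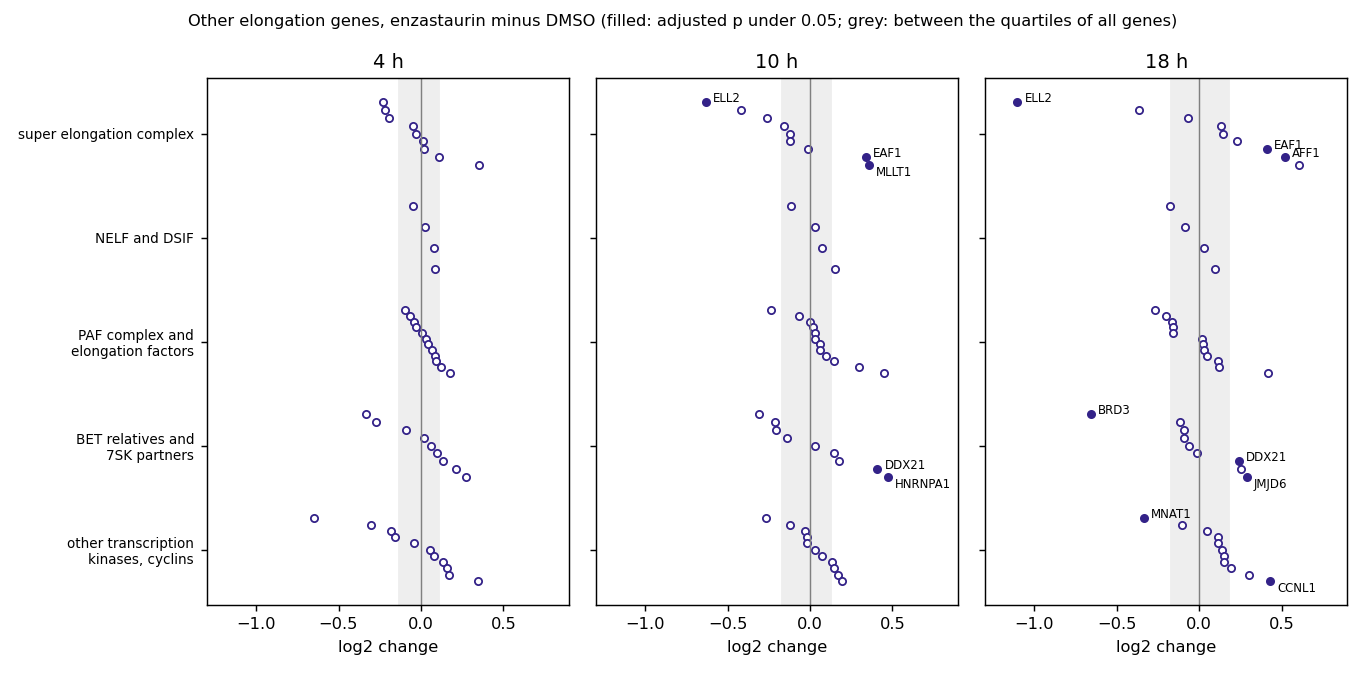
Log2 change of enzastaurin against DMSO at 4, 10 and 18 h for every tested gene of the elongation lists, 1 row per list; filled points have an adjusted p under 0.05, and the grey band runs between the quartiles of all genes tested. ELL2 at -1.10 and BRD3 at -0.66 are the lowest called values at 18 h among the lists other than the 7 genes.

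The mRNAs known to fall when CDK9 is inhibited, mostly short-lived ones, were read beside the 7 genes. Of the 8 tested, 3 were lower and none higher at 4 h, with a median of -0.22, beside 1.25% of all genes called lower. They were MYC (-0.70, adjusted p = 0.000814), IER2 (-0.59, 0.00874) and IER5 (-0.59, 6.53e-06), chosen here after their values were seen. With array medians subtracted, MYC (-0.58, adjusted p = 0.0582) and IER2 (-0.47, adjusted p = 0.141) lost the call at 4 h and IER5 kept it, and IER2 also lost it without either of 2 single arrays (up to 0.0641). MCL1, XIAP, JUNB, FOSL1 and CFLAR did not pass at 4, 10 or 18 h. The changes of the 8 genes ran from -0.70 to 0.38 at 4 h. Their median was -0.03 at 10 h and -0.02 at 18 h, beside -0.02 and 0.00 over all genes. At 10 h MYC (-0.75) and IER5 (-0.20) were lower, beside 4.69% of all genes called lower. IER5 lost that call under 5 alternatives (adjusted p = 0.0524 to 0.355) and without any of 5 single arrays (up to 0.167). At 18 h MYC was lower (-1.04, adjusted p = 6.57e-07) and IER5 higher (0.52, adjusted p = 3.59e-06). Of all genes, 7.90% were called lower and 8.10% higher at that time. IER5 means were 4592, 4710 and 3977 in DMSO and 3044, 4081 and 5689 in enzastaurin at 4, 10 and 18 h. Of 5 genes known to respond to BET inhibitors, 3 were tested and none passed in limma, with 0, 1 and 1 at an unadjusted p under 0.05. Beside the shares of all genes given above, 3 genes are too few for anything to be read from this.

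The genes most like HEXIM1 over the 6 groups were found by the root mean square difference of the centred log2 group means. The closest was DUSP1, a MAP kinase phosphatase, at 0.12, followed by PNRC1 at 0.15, CCNG2 at 0.18, GAD2 at 0.20 and EYA1 at 0.22. A gene with equal means in all groups stood at 0.57 from HEXIM1, and the median of all tested genes at 0.58. These genes were picked for this pattern, so their enzastaurin differences are a description with no test. DUSP1 gave -1.14, -0.84 and -0.45 on the log2 scale at 4, 10 and 18 h. Its mean over probe sets gave -0.25, -0.43 and 0.0333 at these times. CCNG2, an unconventional cyclin, gave -0.85, -1.24 and -0.35. PNRC1 gave -1.29, -0.89 and -0.23, GAD2 -0.78, -0.44 and -0.59, and EYA1 -0.54, -1.11 and -0.57.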

How the data were processed

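Total RNA from U251 cells was labelled with biotin and hybridised to Affymetrix HG-U133 Plus 2.0 arrays, per the labels' protocols. The authors deposited one linear intensity per probe set and array; GCOS 1.2 is named in the submitters' processing notes. The values look scaled, since the mean after trimming 2% at each end lay between 498.2 and 498.5 on every array. Genes were named from the 41091 probe sets with 1 symbol in the platform annotation; 1801 with several symbols and 11721 without any were left unnamed. For each gene the probe set with the highest mean log2(intensity + 16) was kept, and genes below the median level of all probe sets (102) were left out. limma 3.58.1 in R 4.3.3 (lmFit, eBayes with trend) fitted 6 group means on log2(intensity + 16) with 12 residual degrees of freedom. P-values were adjusted over all genes tested by the Benjamini-Hochberg method and called under 0.05. Fold changes are on that offset scale, which understates changes of dim genes. The number of arrays limits the precision. Named besides the 7 genes are up to 5 per elongation list by smallest adjusted p, with HEXIM2, AFF4 and POLR2A in any case, and the 5 genes nearest HEXIM1. The genes and lists were chosen with earlier results of these data known. Alternatives were the offset, the level filter, quantile and median scaling, probe set choice, array weights, the trend, the samples fitted, a replicate block and single-array omission. The fit was tested on simulated data with changes planted at 18 h. It called 46% of the log2 changes of 0.5, 74% of those of 1 and 96% of those of 2. Changes of 0.5 or less can therefore go uncalled. A further item of the naming rule is not reported here.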

Additional observations from a re-analysis of the deposited data

Results flagged for a closer look

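Some enzastaurin effects differed between times by a test of the difference in limma. For HEXIM1 the effect at 18 h was less negative than at 4 h by 0.45 on the log2 scale, a description because the 4 h value chose the gene. For MEPCE the difference was 0.51 (adjusted p = 0.0339) and for BRD2 0.54 (adjusted p = 0.00841), and for both the DMSO level fell from 4 to 18 h. Both calls were lost with array medians subtracted (adjusted p = 0.171 and 0.155); MEPCE also lost it with no level filter (0.0502), without the trend (0.064) and without any of 9 single arrays, and BRD2 with probe sets averaged (0.0562). For ELL2 the effect at 18 h was below that at 4 h by -0.88 (adjusted p = 0.000655). AFF1 differed by 0.64 from 10 to 18 h (adjusted p = 0.021) and by 0.51 from 4 to 18 h (adjusted p = 0.0358). From 4 to 18 h JMJD6 differed by 0.56 (adjusted p = 0.011), POLR2A by 0.95 (0.0228), and CDK7 by 0.32 (0.0354). These calls were lost under some alternatives: AFF1 for 18 against 4 h under 5 (adjusted p = 0.0529 to 0.435) and for 18 against 10 h under 3 (0.0631 to 0.613), JMJD6 under 2 (0.198 and 0.823), POLR2A under 3 (0.0684 to 0.536) and CDK7 under 4 (0.0554 to 0.466). Single omissions also ended those on AFF1 (8 for 18 against 4 h and 4 for 18 against 10 h, up to 0.0948), POLR2A (3, up to 0.0653) and CDK7 (7, up to 0.106). For DUSP1, picked for its likeness to HEXIM1, the difference of 0.69 is a description. IER5 differed by 0.38 from 4 to 10 h (0.029; lost under 3 alternatives, 0.0508 to 0.445, and without any of 8 single arrays), by 0.72 from 10 to 18 h (1e-04) and by 1.10 from 4 to 18 h (1.2e-07). What moves these differences was not tested.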

How the results depend on the processing

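HEXIM1 kept its direction under every alternative at 10 and 18 h and lost its call at 18 h when its probe sets were averaged (-0.22, adjusted p = 0.5). Of the member changes outside single omissions and the counts of genes, 453 kept direction and side of the threshold, 19 lost the call, 1 gained it and 7 reversed. Of those of the other named genes, 632 kept both, 75 lost the call, 1 gained it and 6 reversed. The counts of called genes that follow are taken over all 7 genes, HEXIM1 among them. Those that use the 4 h arrays are therefore a description with no test. At 4 h BRD2 lost its call with no level filter, with array medians subtracted and with probe sets averaged. It also lost the call with every probe set on its own and without the trend. HEXIM1 at 4 h is not counted here, since its value there chose the group. At 10 h the number of the 7 genes called was 1 with medians subtracted, with probe sets averaged and with only the groups compared. At 18 h it was 1 with medians subtracted and 0 with probe sets averaged, in the average over times 1 with probe sets averaged, and for 18 against 4 h 0 with medians subtracted and 1 with probe sets averaged. Single omissions gave 1 to 2 genes at 10 h, 2 to 3 at 18 h, 1 to 3 for 18 against 4 h and 3 to 4 in DMSO. The cause was not tested.

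With probe sets averaged, these changes reversed: HEXIM1 (-0.44), CCNT1 (0.45) and CCNT2 (-0.0276) in DMSO from 4 to 18 h, LARP7 at 10 h (0.0671), HEXIM2 at 18 h (0.0312), AFF4 at 4 h (-0.18) and 10 h (0.0725), and DUSP1 at 18 h (0.0333). Quantile scaling reversed LARP7 at 18 h (-0.0132) and in DMSO (-0.0234), subtracted medians BRD2 in the average (0.00901) and AFF4 at 10 h (0.00503), and array weights AFF4 at 10 h (0.0648). Single omissions spanned 0 for CDK9 at 18 h (-0.0755 to 0.00951), CCNT2 at 10 h (-0.0441 to 0.18), LARP7 at 10 h (-0.11 to 0.0412), 18 h (-0.0881 to 0.0827), in the average (-0.0133 to 0.0443) and in DMSO (-0.0493 to 0.0753), BRD2 in the average (-0.0507 to 0.0029), HEXIM2 at 10 h (-0.34 to 0.0189) and 18 h (-0.20 to 0.10), and AFF4 at 10 h (-0.12 to 0.10).

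After each gene's group mean was subtracted, same-numbered DMSO and enzastaurin arrays of a time correlated at -0.0814 to 0.0544. Over all pairs of same-numbered arrays, those of different times included, the correlations ran from -0.133 to 0.186. These weak values show no clear pairing by replicate number and cannot exclude one. The replicate block gave 2 and 2 genes called at 10 and 18 h. It left HEXIM1 at -0.72 at 18 h, and JMJD6 and MNAT1 at 18 h lost their calls (adjusted p = 0.0539 and 0.052).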
